A study of Mus musculus with 8 samples.

Results

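The lysyl oxidase genes Lox, Loxl1, Loxl2, Loxl3 and Loxl4 were taken from an array table of mouse glomerular RNA as every row whose gene symbol is one of these names. The rule found 5 probes, 1 for each gene, among 25697 probes with 18120 symbols. The RNA came from 4 Cd151-/- and 4 Cd151+/+ male mice of the FVB/N strain, all 3 weeks of age, and each mouse was hybridised to 1 Illumina MouseRef-8 v1.1 array. Cd151 encodes a tetraspanin, a membrane protein that associates with laminin-binding integrins, and it was missing from the whole animal rather than from one cell type. Glomeruli, the filtering units of the kidney, were collected after perfusion with magnetic beads, so each array measured a mixture of podocytes, endothelial cells, mesangial cells and whatever was carried along with them. In such bulk RNA fewer cells of a type and less RNA per cell cannot be told apart.

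Lysyl oxidases are secreted enzymes that need copper and a quinone cofactor made from their own amino acid chain. They oxidise lysine residues of collagen and elastin to aldehydes, which then react with neighbouring chains to form the covalent crosslinks that stiffen the matrix. Lox and Loxl1 are made as pro-enzymes that proteases of the Bmp1 family cleave, and both are best known for elastin and fibrillar collagen, whereas Loxl2, Loxl3 and Loxl4 carry scavenger receptor domains. Loxl2 is also known for crosslinking type IV collagen, the main collagen of basement membranes.

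Values are normalised log2 signals, on which a difference of 1 is a 2-fold change, and a probe counts as detected on an array where its detection p-value, the share of negative-control probes at least as bright, is 0.05 or lower. The genotype labels were checked on Cd151 itself, whose 3 probes were detected on 4 of 4 Cd151+/+ arrays and 0 of 4 Cd151-/- arrays. The arrays fell into a set of 4 with a higher background and a set of 4 with a lower one, each holding 2 mice of each genotype. The background signal was 58.3 to 126 in Cd151+/+ and 68.3 to 132 in Cd151-/- mice, and 11291 to 12359 probes per array were detected. The tubule genes Slc34a1 and Umod were detected on all 8 arrays.

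Of the 5 lysyl oxidase genes, Loxl1 was lower in Cd151-/- glomeruli, Loxl2 was higher, Lox differed by less than its spread between mice, and Loxl3 and Loxl4 were not detected in any mouse. Neither difference passed adjustment over all 14967 tested probes. Lox, Loxl1 and Loxl2 were detected on all 8 arrays and were the 3 members tested. At an unadjusted p of 0.05 limma called 1 of these 3 lower and 1 higher, where 2.61% of all tested probes were called lower and 1.69% higher. At a Benjamini-Hochberg adjusted p of 0.05 limma called 0 of the 3, against 0.0334% of all tested probes.

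**Figure D1:**
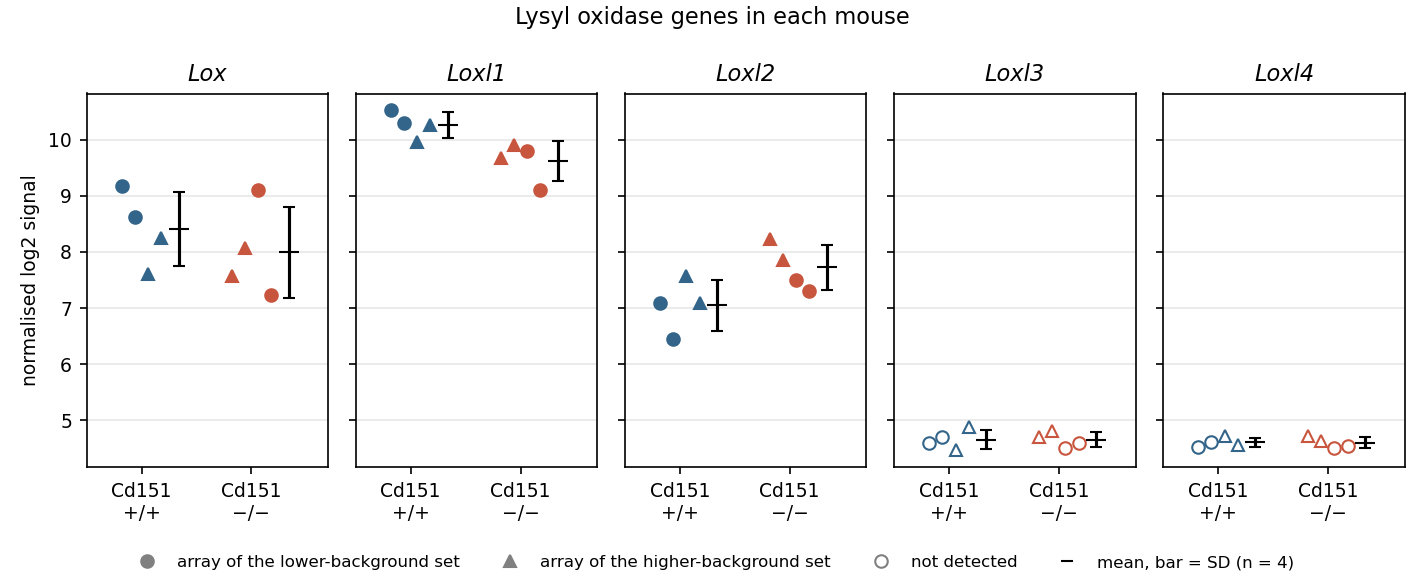
Normalised log2 signal of the 5 lysyl oxidase genes in each mouse, with circles for the set of arrays with lower background, triangles for the set with higher background, open symbols where the probe was not detected, and black bars for the mean ± SD of 4 mice. Loxl1 of all Cd151-/- mice lies below that of all Cd151+/+ mice, Loxl2 is higher on average with overlapping groups, Lox spreads widely in both genotypes, and Loxl3 and Loxl4 stay between 4.47 and 4.88.

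Lox, the founding member of the family, varied more between mice of one genotype than between the genotypes. Its normalised log2 signal was 9.18, 8.61, 7.60 and 8.26 in Cd151+/+ mice 1 to 4. In Cd151-/- mice 1 to 4 it was 7.56, 8.06, 9.11 and 7.24. Cd151-/- mouse 3 stood with the highest control and mouse 4 was the lowest of the 8, so the groups overlapped. The means were 8.41 ± 0.66 and 7.99 ± 0.82 (SD, n = 4 each). The log2 fold change was -0.42 (SE 0.43, 95% interval -1.37 to 0.53) with a limma Benjamini-Hochberg adjusted p of 0.918, and the two-sided exact permutation test gave p = 0.4. This interval holds both a fall larger than that of Loxl1 and a rise. Leaving out Cd151+/+ mouse 1 or 3 gave a log2 fold change of -0.16 or -0.69, and leaving out Cd151-/- mouse 1, 3 or 4 gave -0.28, -0.79 or -0.17. With array weights it was -0.84 (limma unadjusted p = 0.0296).

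Loxl1, which in mice is required for the upkeep of elastic fibres in adult tissues, was the member that separated the genotypes. Its normalised log2 signal was 10.52, 10.29, 9.96 and 10.26 in Cd151+/+ mice 1 to 4. The Cd151-/- mice 1 to 4 had 9.67, 9.91, 9.79 and 9.10. The lowest control lay just above the highest Cd151-/- mouse, and Cd151-/- mouse 4 lay well under the other three. The mean was 10.26 ± 0.23 in Cd151+/+ and 9.62 ± 0.36 in Cd151-/- mice (SD, n = 4 each), a log2 fold change of -0.64 (SE 0.24, 95% interval -1.17 to -0.12), or 1.56-fold lower.

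For Loxl1, limma gave an unadjusted p of 0.0212, rank 265 among the tested probes, and a Benjamini-Hochberg adjusted p of 0.918. The two-sided exact permutation test gave p = 0.0286, which is the smallest p that 4 mice against 4 allow. Among all tested probes, 1.46% had groups that did not overlap with Cd151-/- lower and 0.855% with Cd151-/- higher. The Loxl1 difference was -0.96 within the lower-background arrays and -0.32 within the higher-background arrays. The genotypes did not overlap in either set, although in the latter the nearest mice were 9.96 and 9.91. As the deposited signal divided by the background of its own array, without normalisation between arrays, Loxl1 was 9.39 and 15.7 in the Cd151+/+ mice of the higher-background arrays and 11.4 and 13.7 in the Cd151-/- mice, which overlapped. The same ratio on the lower-background arrays was 11.5 and 10.7 in Cd151+/+ against 7.08 and 5.41 in Cd151-/- mice, which did not. Without Cd151+/+ mouse 1 the unadjusted p of Loxl1 was 0.0674, and without Cd151-/- mouse 4 it was 0.0624.

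**Figure D2:**
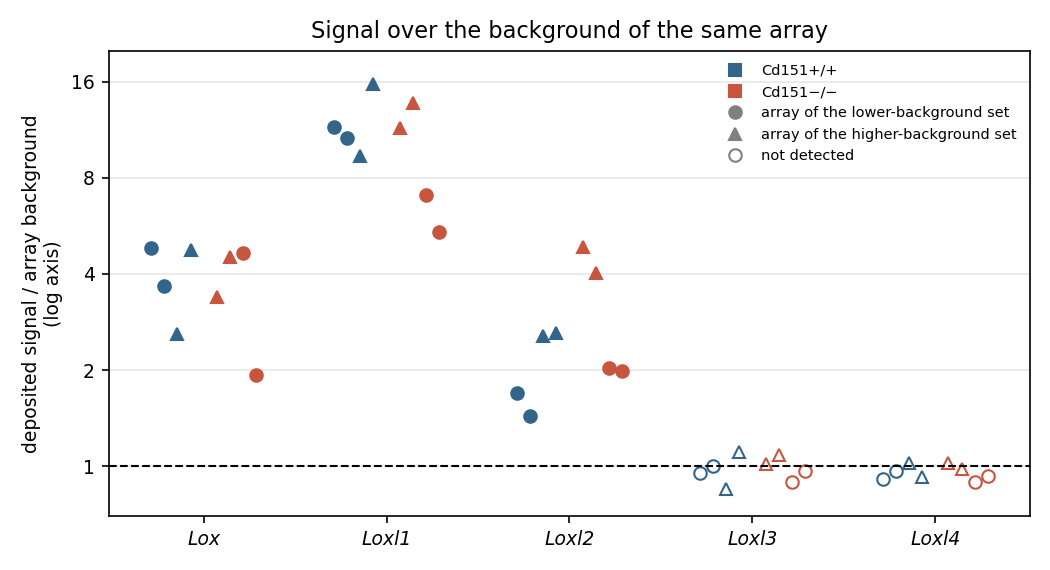
Deposited signal divided by the background of the same array, on a log axis, for the 5 lysyl oxidase genes in each mouse (blue Cd151+/+, red Cd151-/-, circles and triangles for the lower- and higher-background arrays, open symbols not detected, dashed line at a signal equal to background). Loxl2 lies between 1.44 and 4.87 times background, and Loxl3 and Loxl4 lie around the dashed line on every array.

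Loxl2, the member tied to type IV collagen, went the other way. The Cd151+/+ mice 1 to 4 had a normalised log2 signal of 7.09, 6.45, 7.56 and 7.09. In Cd151-/- mice 1 to 4 it was 8.24, 7.85, 7.51 and 7.31. Cd151+/+ mouse 3 exceeded Cd151-/- mice 3 and 4, so the groups overlapped over all 8 arrays, but within each background set both Cd151-/- mice were above both Cd151+/+ mice. The means were 7.05 ± 0.46 and 7.73 ± 0.41 (SD, n = 4 each). The log2 fold change was 0.68 (SE 0.29, 95% interval 0.04 to 1.31), or 1.60-fold higher, and it was 0.64 within the lower-background and 0.71 within the higher-background arrays.

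For Loxl2, limma gave an unadjusted p of 0.0394 and a Benjamini-Hochberg adjusted p of 0.918. The two-sided exact permutation test gave p = 0.0857. Its deposited signal was 1.44 to 2.62 times the array's background in Cd151+/+ mice and 1.99 to 4.87 times in Cd151-/- mice. Its unadjusted p was over 0.05 without Cd151+/+ mouse 1 (0.0643), mouse 2 (0.132) or mouse 4 (0.0616), and without Cd151-/- mouse 1 (0.12) or mouse 2 (0.0777), with 75th percentile scaling (0.0526), with trended and robust variance (0.052) and with the mouse number as a replicate block (0.0737). With the array set as a block the limma unadjusted p of Loxl2 was 0.00787 and the adjusted p 0.356. The log2 fold change was 1.08 with array weights and 0.43 without background correction.

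The probes of Loxl3 and Loxl4 were not well above background on any array, so no fold change is given for either. Loxl3, which is required for normal skeletal and palate development in mice, had a signal of 0.850 to 1.11 times the array's background and detection p-values of 0.208 to 0.920. Loxl4 had 0.895 to 1.02 times the background and detection p-values of 0.412 to 0.866. The normalised log2 signals of both genes stayed between 4.47 and 4.88 in all 8 mice. With 1 probe for each gene, a transcript that this probe does not reach would be missed.

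The opposite directions of Loxl1 and Loxl2 were compared on each array as Loxl1 minus Loxl2, a quantity from which a factor that multiplies all probes of an array drops out, but not a background added to them. Its absolute size depends on both probes and is not a ratio of transcripts, and only its change between genotypes is read. The difference was 2.39 to 3.84 in Cd151+/+ and 1.43 to 2.28 in Cd151-/- mice, and the groups did not overlap. How often differences between other pairs of probes do not overlap was not computed. The means of Loxl1 minus Loxl2 were 3.21 ± 0.61 and 1.89 ± 0.37 (SD, n = 4 each), a change of -1.32, or 2.49-fold in the ratio. This change is the log2 fold change of Loxl1 (-0.64) less that of Loxl2 (0.68), so it restates those differences. Without background correction the change was -1.03. It was -1.60 within the lower-background arrays and -1.04 within the higher-background arrays. In a two-sided exact permutation test this gave p = 0.0286, and 0.0858 after Benjamini-Hochberg adjustment over the 3 pairs of detected members, so it did not pass 0.05.

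The pair of Lox and Loxl2 changed by -1.10 (exact permutation p = 0.171, adjusted p = 0.256) and the pair of Lox and Loxl1 by 0.22 (exact permutation p = 0.657, adjusted p = 0.657). In both of these pairs the groups overlapped.

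**Figure D3:**
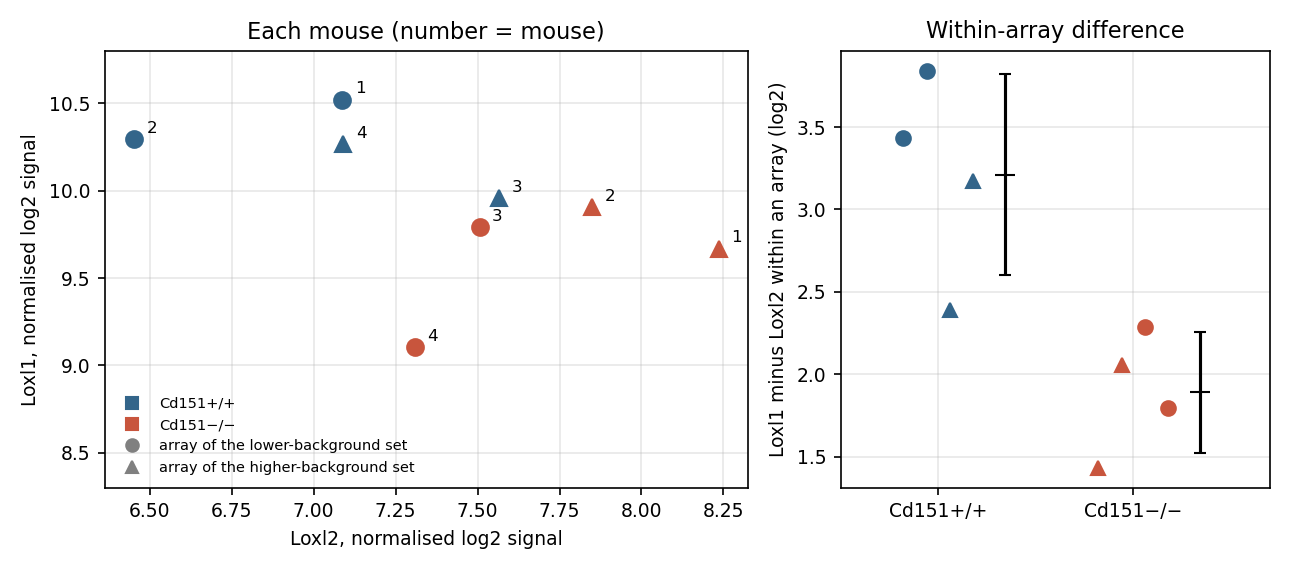
Left, normalised log2 signal of Loxl1 against that of Loxl2, 1 point per mouse with the mouse's number (blue Cd151+/+, red Cd151-/-, circles and triangles for the lower- and higher-background arrays). Right, Loxl1 minus Loxl2 on each array with the mean ± SD of 4 mice, which is 2.39 to 3.84 in Cd151+/+ and 1.43 to 2.28 in Cd151-/- mice.

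Across the 8 mice, the genes whose normalised log2 signal followed each member most closely were sought among 7422 genes detected on all 8 arrays. The points share arrays and genotype, so these correlations are descriptions. Loxl1 ran most closely with Junb, a subunit of the AP-1 transcription factor (Pearson r = 0.976, Spearman rho = 0.952), with Zfp36, a protein that binds AU-rich messenger RNAs and speeds their decay (r = 0.971, rho = 0.929), and with Mcc (r = 0.967, rho = 0.976). Their log2 fold changes were -1.48, -0.99 and -0.69. With the genotype means taken out, r with Loxl1 was 0.955 for Junb, 0.974 for Zfp36 and 0.919 for Mcc. These genes were picked for their r on the same 8 arrays, so the high values are a result of that choice.

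Lox followed Dnmbp (r = 0.979, rho = 1), the motor protein gene Myo1c (r = 0.970, rho = 0.976) and the unnamed transcript 1110012D08Rik (r = 0.968, rho = 1). Loxl2 followed Rpa2, a subunit of the single-stranded DNA binding replication protein A (r = 0.937, rho = 0.952), the lysosomal membrane protein gene Scarb2 (r = 0.937, rho = 0.929) and the telomere protein gene Acd (r = 0.922, rho = 0.929). The closest genes of the 3 members were 9 different genes. Between the members themselves, Pearson r over the 8 arrays was 0.702 for Lox and Loxl1. It was -0.448 for Lox and Loxl2 and -0.479 for Loxl1 and Loxl2.

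The genes that work with lysyl oxidases were examined in 7 lists of 79 genes in all, of which 77 were on the array and 64 were tested. Of the 64, 32 were lower and 32 higher in Cd151-/- mice, with a median log2 fold change of 0.02, beside -0.01 over all tested probes. At an unadjusted p of 0.05 limma called 1 of them lower and 2 higher, 4.69% in all, beside 2.61% lower and 1.69% higher over all tested probes. Of the 64, 0 passed Benjamini-Hochberg adjustment. The 32 lower include Col1a2, Col11a1 and Col24a1, detected in Cd151+/+ mice only. The 32 higher include Pcolce2 and Steap4, detected in Cd151-/- mice only. Each of these was tested only through the genotype in which it was higher.

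**Figure D4:**
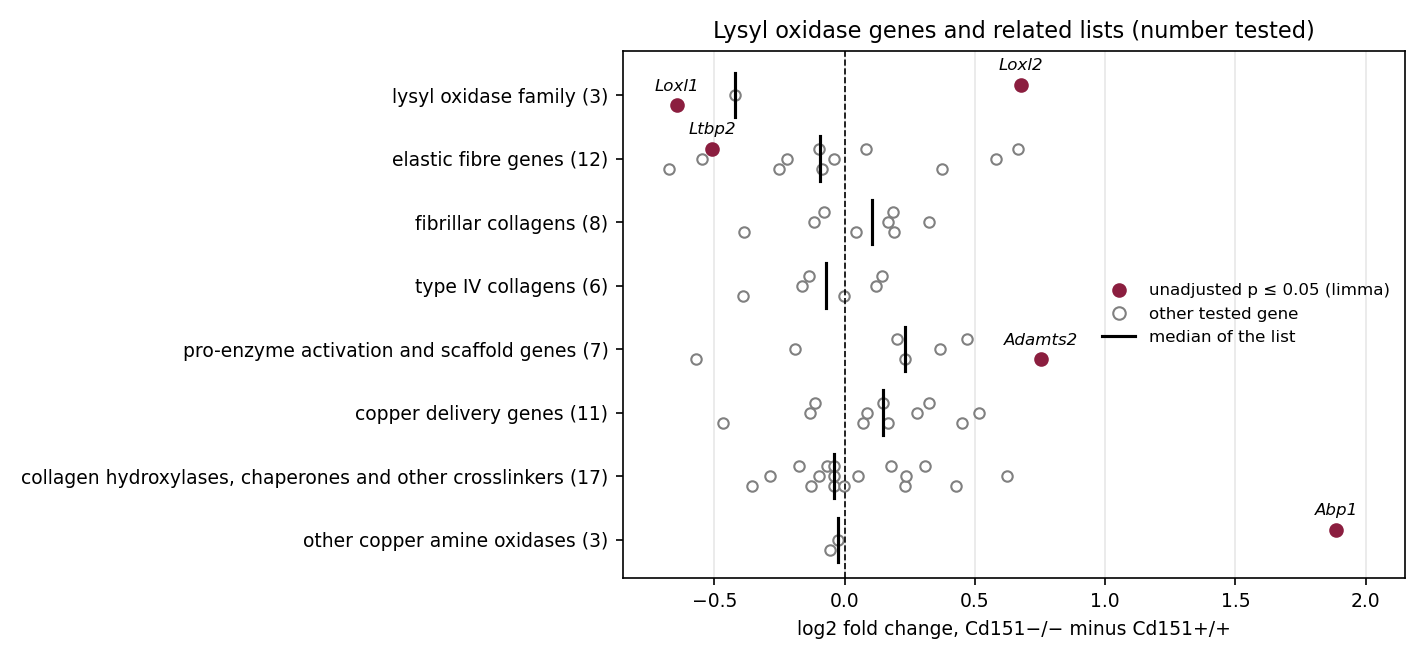
Log2 fold change (Cd151-/- minus Cd151+/+) of the tested lysyl oxidase genes and of the tested genes of 7 related lists, 1 point per gene, filled where limma's unadjusted p is 0.05 or lower, with the median of each list as a black line. The medians of the 7 related lists lie between -0.09 and 0.23. That of the 3 lysyl oxidases (-0.42) is the value of Lox, between Loxl1 (-0.64) and Loxl2 (0.68). The filled points are Loxl1, Loxl2, Ltbp2, Adamts2 and Abp1.

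Among the substrates, 12 of 17 elastic fibre genes were tested, 8 lower and 4 higher, with a median of -0.09. Ltbp2, a latent TGF-beta binding protein that associates with fibrillin microfibrils, was the 1 gene called. Its normalised log2 signal was 5.32 to 5.65 in Cd151+/+ and 4.66 to 5.30 in Cd151-/- mice, and it was detected on 3 arrays of the former and 1 of the latter. The fitted log2 fold change was -0.51 (limma unadjusted p = 0.0365, adjusted p = 0.918), but its values lay near background, and the nearest mice of the genotypes had 5.32, not detected, in Cd151+/+ and 5.30, detected, in Cd151-/-. Ltbp2 was no longer called without background correction, with an offset of 50, with 75th percentile scaling, or with the mouse number as a block. A filter for probes detected in all 4 mice of a genotype removed its probe before the fit. Eln, which encodes elastin itself, had 9.78 to 10.88 in Cd151+/+ and 9.14 to 10.30 in Cd151-/- mice, overlapping groups with a log2 fold change of -0.55 (unadjusted p = 0.117). Efemp2, encoding fibulin-4, which brings Lox to tropoelastin, had a log2 fold change of 0.67 (limma unadjusted p = 0.161). It was detected on 2 Cd151+/+ and 4 Cd151-/- arrays, and in both genotypes its signal was higher on the higher-background arrays. Fbln5 was not detected.

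Of the fibrillar collagens 8 of 11 were tested, 3 lower and 5 higher. The 3 lower genes, Col1a2, Col11a1 and Col24a1, were each detected on 1 Cd151+/+ and 0 Cd151-/- arrays. They were thus tested only through the genotype in which they were higher. Of the type IV collagens 6 of 6 were tested, 4 lower and 2 higher. The test called 0 genes in both lists. The log2 fold change was 0.17 for Col1a1. Col1a2 was detected in 1 Cd151+/+ mouse and no Cd151-/- mouse, so no fold change is given for it, and Col3a1 was not detected. Col4a3, Col4a4 and Col4a5 encode the chains of the mature glomerular basement membrane network and were detected on all 8 arrays. Their log2 fold changes were -0.16, 0.12 and -0.39 with unadjusted p of 0.459, 0.604 and 0.169. Col4a4 is counted as higher by its brightest probe, and a further probe gave -0.08 (limma unadjusted p = 0.748).

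Of the genes that activate or anchor the pro-enzymes, 7 of 11 were tested, 2 lower and 5 higher. Adamts2, a procollagen N-proteinase that can also cleave pro-Lox, was the 1 gene called, with a log2 fold change of 0.75 (limma unadjusted p = 0.04999, adjusted p = 0.918, exact permutation p = 0.143). Its normalised log2 signal was 8.95 and 8.43 in Cd151+/+ mice 1 and 2 and 7.51 and 7.40 in mice 3 and 4, beside 8.49 to 9.04 in Cd151-/- mice. The controls therefore split by array set and the Cd151-/- mice did not. A further probe of Adamts2 gave 0.67 (unadjusted p = 0.0987). Bmp1, the protease that cleaves pro-Lox, had probes that disagreed, with log2 fold changes of 0.23 for the brightest and -0.27, -0.30 and -0.53 for the others (unadjusted p = 0.499, 0.494, 0.446 and 0.0451), and no direction is given for it. Fn1, which encodes the fibronectin scaffold of pro-Lox, was not matched by symbol.

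Of the copper delivery genes 11 of 13 were tested, 3 lower and 8 higher, with 0 called. Atp7a, the pump that loads copper onto secreted enzymes, had a log2 fold change of -0.13 and was detected in 1 mouse of each genotype. Of the collagen hydroxylases, chaperones and other crosslinkers 17 of 18 were tested, 10 lower and 7 higher, with 0 called. The lysyl hydroxylases Plod1, Plod2 and Plod3, which prepare collagen lysines for crosslinking, had log2 fold changes of -0.17, 0.31 and -0.04. Pxdn, encoding the peroxidase that forms sulfilimine crosslinks in type IV collagen, had -0.04, and the transglutaminase gene Tgm2 had 0.43 (unadjusted p = 0.191).

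The other copper amine oxidases share the quinone chemistry but belong to a separate family. Of the 3 tested, Abp1, which encodes diamine oxidase, the enzyme that degrades histamine and putrescine, was called higher. Its normalised log2 signal was 5.97, 4.97, 5.66 and 6.30 in Cd151+/+ mice 1 to 4. In Cd151-/- mice 1 to 4 it was 8.23, 6.27, 6.51 and 9.43, so mice 1 and 4 were far higher than mice 2 and 3, and the groups overlapped between Cd151+/+ mouse 4 and Cd151-/- mouse 2. The log2 fold change was 1.89 (SE 0.62, limma unadjusted p = 0.0112, adjusted p = 0.918, exact permutation p = 0.0571).

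Markers of the cell types that the isolates could hold were read in the same fit, and 0 of them passed Benjamini-Hochberg adjustment in limma. All 9 tested proximal tubule markers of 10 listed were higher in Cd151-/- mice. Limma called 2 of them at an unadjusted p of 0.05, where 1.69% of all tested probes were called higher. Lrp2 and Pck1 were each detected on 0 Cd151+/+ and 2 Cd151-/- arrays, so they were tested only through the genotype in which they were higher. Slc22a8, 1 of the 2 called, was detected on 1 Cd151+/+ and 4 Cd151-/- arrays. The mean normalised log2 signal of the 9 markers was 8.27 to 9.38 in Cd151+/+ and 9.16 to 10.32 in Cd151-/- mice. It was highest in Cd151-/- mouse 4 (10.32) and mouse 1 (9.85), the mice in which Abp1 was highest. The 3 tested of 4 erythroid markers had a mean of 9.80 to 10.10 in Cd151+/+ and 8.23 to 10.04 in Cd151-/- mice. Limma called 2 of them lower, where 2.61% of all tested probes were called lower. These were Alas2, with a log2 fold change of -2.57, and Hba-a1, with -0.69. Hbb-b1 had -0.02 and was detected on 0 Cd151+/+ and 1 Cd151-/- arrays.

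The list means of the glomerular cell markers differed less than those of the proximal tubule and erythroid markers. The 6 tested of 10 podocyte markers were all lower, none of them called, with a mean of 11.86 to 12.17 in Cd151+/+ and 11.17 to 12.32 in Cd151-/- mice, a difference of -0.23. The 9 endothelial markers had 10.77 to 11.30 and 10.32 to 11.19, a difference of -0.33, with 8 lower and 1 higher. The 6 tested of 9 mesangial and smooth muscle markers had 9.46 to 9.73 and 8.78 to 9.92, a difference of -0.08. Of these, 4 were lower and 2 higher. Limma called Acta2 higher (log2 fold change 0.71, unadjusted p = 0.0185) and Pdgfrb lower (-0.74, unadjusted p = 0.0399). Over all tested probes, 1.69% were called higher and 2.61% lower. The genotypes overlapped for both genes (exact permutation p = 0.0571 and 0.114). Further probes of Acta2 gave 0.50 and 0.36 (limma unadjusted p = 0.0768 and 0.244). The 5 tested of 7 distal tubule and collecting duct markers had a mean difference of -0.15, with 3 lower and 2 higher. The difference was -0.01 for the 4 tested of 7 fibroblast and adventitia markers and -0.07 for the 4 tested of 8 leukocyte markers. Limma called 0 genes in the endothelial, distal tubule and collecting duct, fibroblast and adventitia, and leukocyte lists. The part of any of these cell types in the values of Loxl1, Loxl2 or Abp1 was not tested.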

How the data were processed

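The authors labelled glomerular RNA of 8 mice, hybridised it to Illumina MouseRef-8 v1.1 arrays and deposited, per probe and array, the signal intensity, neither background-subtracted nor normalised, and a detection p-value in steps of 1 over 798 negative controls. Quality control was done by the authors in GenomeStudio. The genome build was not given in the sources used here, and gene symbols are those of the array. Groups came from the sample labels.

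In R 4.3.3, limma 3.58.1 derived the background of every array from its detection p-values, applied neqc (offset 16, quantile normalisation) and fitted genotype with lmFit and eBayes. The fit covered the 14967 probes that 1 or more arrays detected (detection p-value at most 0.05), with Benjamini-Hochberg adjustment over all of them. The script was tested on simulated data. For lists, the probe with the highest mean stood for a gene. Exact permutation tests were two-sided over 70 relabelings. Named were all members, the listed genes at an unadjusted p of 0.05 or lower, genes picked by role, and for each member the 3 genes with the highest Pearson r. The members and lists were chosen with earlier results of these data known. Of 148 listed genes, markers included, 7 were not matched on the array. Alternatives changed background correction, offset, normalisation, detection filter, blocks, variance model, array weights and the mice included. The median signal of detected probes was 3.02 to 4.56 times background. The number of arrays limits precision.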

Additional observations from a re-analysis of the deposited data

Results flagged for a closer look

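Among 44 groups of 4 mice, from 22 genes described above, 1 held a mouse far from the others, where chance alone flags about 1 group in 20. The gene was Bmp1, whose brightest probe had a normalised log2 signal of 9.41 in Cd151-/- mouse 4 and 10.39 to 10.46 in the other Cd151-/- mice. The gap between that mouse and the nearest other was 0.934 of the range of the group.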

How the results depend on the processing

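Over 18 alternatives, Lox kept a log2 fold change below 0 (-0.84 to -0.16), Loxl1 one below 0 (-0.74 to -0.47) and Loxl2 one above 0 (0.43 to 1.08), and 0 members passed an adjusted p of 0.05 in any of them. The unadjusted limma p was 0.0296 to 0.715 for Lox, under 0.05 with array weights only, 0.00672 to 0.0674 for Loxl1, and 0.00176 to 0.132 for Loxl2, over 0.05 in 8 of 18. The count of lysyl oxidase genes called lower at an unadjusted p of 0.05 was 2 with array weights. The count called higher was 0 with scaling to the 75th percentile, with the mouse number as a replicate block, or with trended and robust variance. Leaving out each mouse in turn gave counts of 0 to 1 in both directions. Of related genes called lower there were 0 with a filter for probes detected in all 4 mice of a genotype, which removed Ltbp2 before the fit. There were also 0 such genes without background correction, with an offset of 50, with 75th percentile scaling or with the replicate block. There were 8 with array weights, and 0 to 2 with a mouse left out. Of related genes called higher there was 1 with 75th percentile scaling, the 4-mouse detection filter, the replicate block or trended and robust variance. There were 6 with the array set as a block or with array weights, and 1 to 3 with a mouse left out. The within-array change of Lox minus Loxl1 was -0.09 to 0.39 with a mouse left out and turned negative, at -0.0913, without Cd151-/- mouse 3, and that of Loxl1 minus Loxl2 was -1.59 to -1.11. The cause of these shifts was not tested.

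Mouse numbers did not pair the arrays (correlations of same-numbered deviations -0.583 to -0.00856, with 0 of 8 arrays closest to their own number). Same-numbered mice of the genotypes lay in opposite background sets, so the replicate block joined a lower-background with a higher-background array. With the replicate block the unadjusted p was 0.0492 for Loxl1 and 0.0737 for Loxl2. With the array set as a block the limma unadjusted p was 0.0153 for Loxl1 and 0.00787 for Loxl2. The adjusted p was then 0.378 and 0.356. Further probes of a member could not be tried, since each gene has 1 probe.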
